A study of Mus musculus with 12 samples.

Results

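The genes described here carry pyruvate into the mitochondrial matrix, turn it into acetyl-CoA or oxaloacetate, and run the citric acid cycle and the malate-aspartate shuttle. They were taken from a list of symbols of this pathway, and the rule itself uses no measured value. All 31 listed symbols were among the 17536 genes of the deposited table, and all 31 were among the 13489 genes kept by a filter on low counts. Pyruvate from glycolysis and lactate crosses the inner mitochondrial membrane through a carrier made of MPC1 and MPC2. The pyruvate dehydrogenase complex then makes acetyl-CoA, and it is switched off by 4 kinases that phosphorylate its E1 subunit and switched on by phosphatases. The heart takes most of its ATP from fatty acids and the rest largely from pyruvate, so the kinases help set how much carbohydrate is burnt.

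Hearts of 10-week-old mice of the outbred ICR stock were the source of the RNA. The 12 libraries fall into 4 groups of 3. In the AOS-FMT group mice received busulfan and an FMT labelled AOS10mg/kg. In the Con-FMT group they received busulfan and an FMT labelled Con. The busulfan group received busulfan, an alkylating chemotherapy drug, at 20 mg/kg, and the control group is labelled control. AOS and FMT are given as the labels write them. The dose of busulfan before either FMT is not stated there. The series design states that it explores the effect of FMT on hearts damaged by busulfan. The replicates are numbered but not said to be separate animals, so p-values measure only the spread between these libraries, part of which may be technical.

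Library totals ran between 11333600 and 14335700 estimated counts, and the 31 genes took 1.58% to 2.18% of them. All 13 cardiomyocyte markers were detected in every library, with summed levels of 101000 to 136800 CPM (counts scaled to the size of the library, with TMM factors) in AOS-FMT hearts, 136900 to 145100 CPM in Con-FMT hearts, 153600 to 176100 CPM in busulfan hearts and 119000 to 170400 CPM in control hearts. The 8 atrial markers varied far more between libraries. Their summed level was 1947 to 27040 CPM in AOS-FMT hearts, 485.6 to 4270 CPM in Con-FMT hearts, 313 to 3291 CPM in busulfan hearts and 2087 to 19150 CPM in control hearts. In whole tissue, fewer cells of a type and less RNA per cell cannot be told apart.

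The genes covered a wide range of levels per length. By median TPM (abundance per transcript length and library size) over the 12 libraries, the mitochondrial malate dehydrogenase Mdh2 stood highest at 1950 TPM. The carrier subunit Mpc1 at 1426 TPM, the cytosolic malate dehydrogenase Mdh1 at 1422 TPM and the NADP-dependent isocitrate dehydrogenase Idh2 at 1372 TPM came next. Mpc1, Mdh1 and Idh2 overlapped from library to library, so their order is not firm. Among the kinases Pdk2 stood at 378.3 TPM, Pdk4 at 102.7 TPM, Pdk1 at 41.9 TPM and Pdk3 at 2.81 TPM. The phosphatase subunits were low, with 22.3 TPM for the regulatory subunit Pdpr, 11.6 TPM for Pdp1 and 6.74 TPM for Pdp2. Pyruvate carboxylase Pcx, which makes oxaloacetate from pyruvate, stood at 11.8 TPM. Pdk3 had as few as 18 counts in a library.

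**Figure D1:**
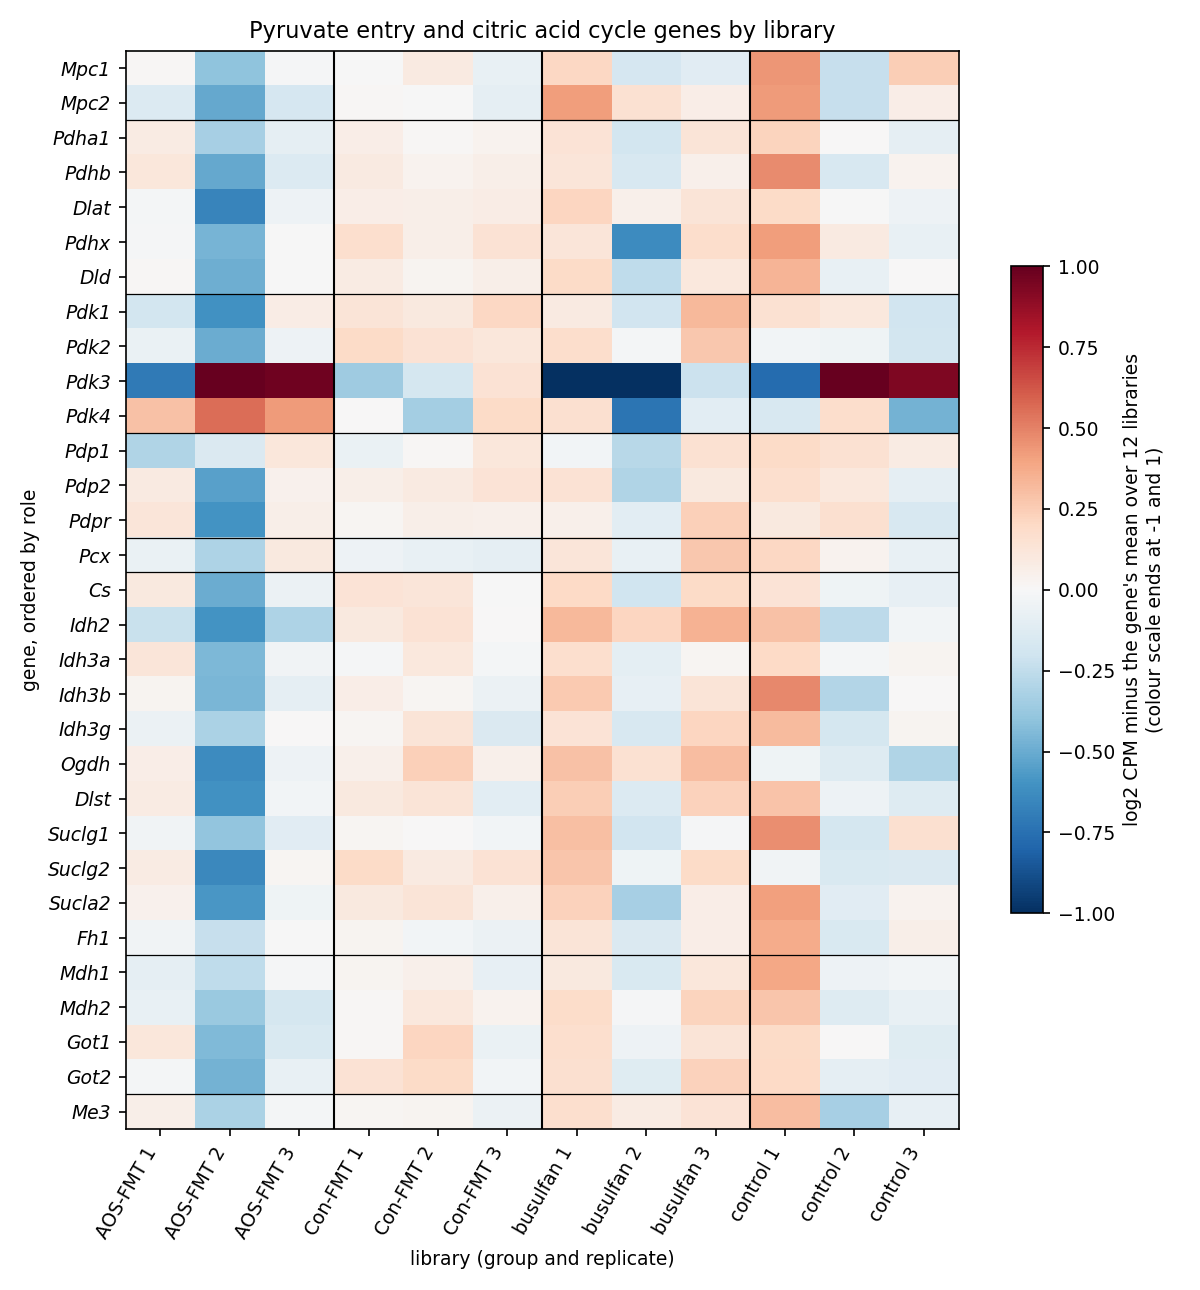
Rows are the 31 genes in order of role, columns the 12 libraries, and colour the log2 CPM of a gene minus its own mean over the 12 libraries, with the scale ending at -1 and 1. The column of AOS-FMT replicate 2 is blue for nearly all genes except Pdk3 and Pdk4, and 18 genes were highest by CPM in control replicate 1. The summed TPM of the 31 genes in control replicate 1 was 15114, within a range of 11661 to 16928 over the 12 libraries.

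None of the 31 genes passed the test in any of the 6 pairwise comparisons, which used edgeR's quasi-likelihood test and a threshold of 0.05 on the p-value after Benjamini-Hochberg adjustment over the 13489 genes. Few genes passed anywhere in the transcriptome. Of all genes tested, 0.0445% were called in AOS-FMT against busulfan, 0.0297% in AOS-FMT against Con-FMT, 0.0815% in AOS-FMT against control and 0.0593% in busulfan against control. Both comparisons of Con-FMT hearts, against busulfan and against control, had 0% called. With limma-voom 0 of the 31 genes were called in each comparison, beside 0% to 0.0593% of all genes (0.0297% in both AOS-FMT against busulfan and AOS-FMT against Con-FMT, 0.0593% in AOS-FMT against control and 0.0371% in busulfan against control). DESeq2 called Idh2 in AOS-FMT against busulfan, where it called 0.971% of all genes. It called none of the 31 genes in the other comparisons, where it called 0.237% of all genes in AOS-FMT against Con-FMT, 0.904% in AOS-FMT against control, 0.0148% in Con-FMT against busulfan, 0.682% in Con-FMT against control and 0.912% in busulfan against control. What follows describes levels and fold changes, none of which passed the edgeR test.

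By counts scaled by TMM, AOS-FMT hearts had lower levels of almost the whole pathway than busulfan hearts, although no single gene passed the test. The log2 fold change was below 0 for 29 of 31 genes, or 93.5%, against 49.3% of all genes tested. Only Pdk3 and Pdk4, both kinases that switch the pyruvate dehydrogenase complex off, had a fold change above 0. The median log2 fold change of the 31 genes was -0.20, against 0.01 over all genes. At an unadjusted p under 0.05 there were 6 lower genes, Idh2, Mpc2, Ogdh, Pdk2, Mdh2 and Dlat, which is 19.4% of the genes against 5.85% of all genes. Pdk4 and Pdk3 were the 2 higher genes, 6.45% against 7.8%. Libraries of both groups did not overlap by CPM for 7 lower genes (22.6%, against 10.9% of all genes) and for 1 higher gene, Pdk4 (3.23%, against 10.3%). By TPM the libraries of Idh2, Mpc2 and Pdk4 stayed apart, whereas those of Ogdh, Pdk2, Mdh2, Dlat and Me3 overlapped. Without AOS-FMT replicate 2 there was 1 lower gene of 31 at an unadjusted p under 0.05, against 358 of 13487 genes. Without busulfan replicate 1 there were 2 genes of 31 in both directions together, against 1120 of 13716 genes.

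AOS-FMT replicate 2 weighed heavily on that picture. It was the lowest of the 12 libraries for 26 of the 31 genes, or 83.9%, whereas it was the lowest for 18.2% of all genes. The median of the 31 genes, each centred on its own mean, was -0.46 on the log2 CPM scale in that library and between -0.15 and 0.22 in the other 11. Without it the median log2 fold change of AOS-FMT against busulfan was -0.09, with 24 of 31 genes below 0. Cardiomyocyte markers were low in that library too. Their mean was 12.84, 12.23 and 12.58 log2 CPM in AOS-FMT hearts, against 13.04, 13.06 and 12.97 log2 CPM in busulfan hearts, and AOS-FMT replicate 2 was again the lowest. Markers and pathway did not always move together. Busulfan replicate 2 had a median of -0.15 for the 31 centred genes beside a marker mean of 13.06 log2 CPM. All 13 cardiomyocyte markers had a fold change below 0 in this comparison, with a median of -0.46 on the log2 scale. The fold changes of all 8 atrial, all 9 fibroblast, all 10 macrophage and all 13 liver markers were above 0, with medians of 3.14, 0.72, 0.52 and 3.15 on the log2 scale. The fibroblast median was 0.36 and the atrial median 2.14 without AOS-FMT replicate 2. Also above 0 were 6 of 6 adipocyte markers (median 2.79), 7 of 7 erythroid markers (median 1.11) and 7 of 8 mesothelial markers (median 2.29, and 0.18 without that library). Summed fibroblast markers ran at 5166 to 9948 CPM in AOS-FMT hearts and 3757 to 5101 CPM in busulfan hearts. Summed macrophage markers ran at 871.5 to 1252 CPM in AOS-FMT hearts and 568.9 to 807 CPM in busulfan hearts, and summed liver markers at 137.3 to 827.8 CPM in AOS-FMT hearts and 63.4 to 96.7 CPM in busulfan hearts. The part of these lists in the result was not tested. With the cardiomyocyte marker mean as a covariate the median of the 31 genes was 0.12 and 9 of them were below 0, and with an atrial score (log2 CPM averaged over Bmp10, Myl7, Myl4 and Sln) as the covariate 20 were below 0. The cardiomyocyte marker means of AOS-FMT and busulfan libraries did not overlap. In this comparison that covariate therefore cannot be told apart from group, for single genes as for the median.

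**Figure D2:**
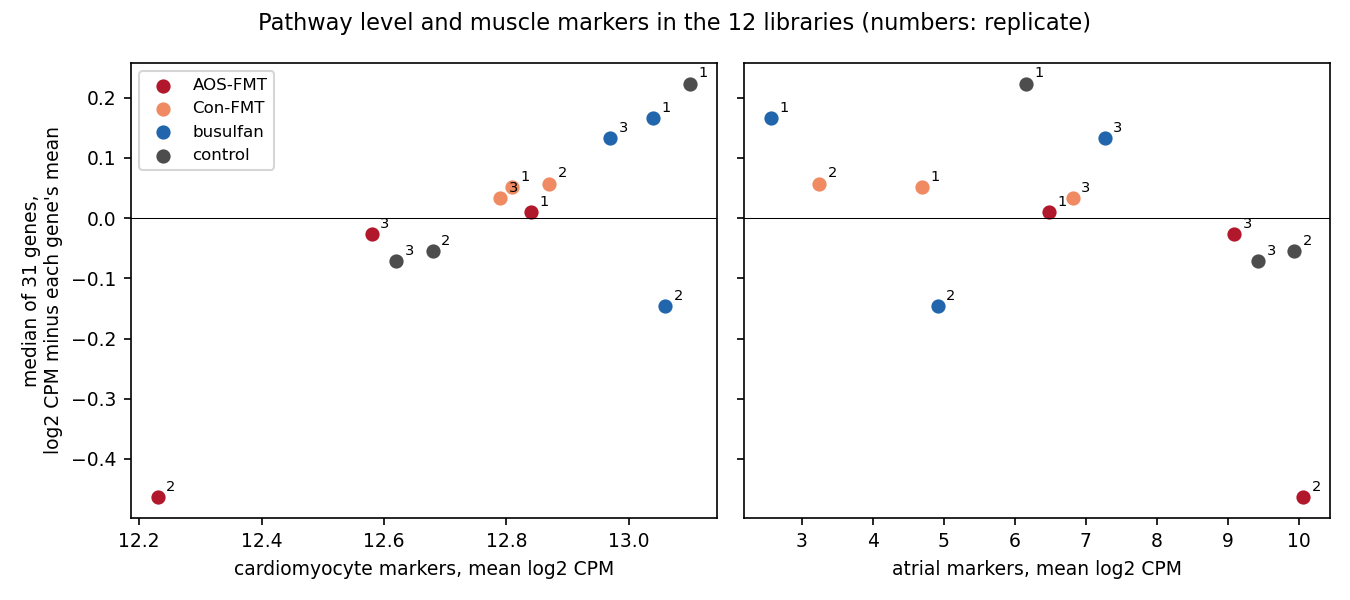
Each point is a library, with the median of the 31 centred genes (log2 CPM minus each gene's mean) on the vertical axis, and the mean log2 CPM of the cardiomyocyte markers (left) or the atrial markers (right) on the horizontal axis. AOS-FMT replicate 2 lies at -0.46, with the lowest cardiomyocyte marker mean, 12.23, and the highest atrial marker mean, 10.06. Busulfan replicate 2 lies at -0.15 with a cardiomyocyte marker mean of 13.06.

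Sequence upstream of the start is shown for the gene with the smallest p in each direction in AOS-FMT against busulfan. Both are stretches of RefSeq promoter windows of GRCm38.p6, 5′ to 3′ on the strand of the gene. Each runs from base 250 to base 61 before the RefSeq start and holds no GENCODE exon of its gene. The Idh2 stretch lies at chr7:80115411-80115600 on the minus strand, inside the annotated span of Idh2, chr7:80094845-80118608. The Pdk4 stretch lies at chr6:5496339-5496528 on the minus strand, upstream of Pdk4, chr6:5483351-5496278. Capitals mark a CCAAT box, the letters CCAAT on either strand.
Idh2: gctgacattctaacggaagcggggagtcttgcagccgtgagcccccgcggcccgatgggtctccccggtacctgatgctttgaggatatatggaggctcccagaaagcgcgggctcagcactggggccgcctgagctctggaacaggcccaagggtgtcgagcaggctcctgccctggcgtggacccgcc
Pdk4: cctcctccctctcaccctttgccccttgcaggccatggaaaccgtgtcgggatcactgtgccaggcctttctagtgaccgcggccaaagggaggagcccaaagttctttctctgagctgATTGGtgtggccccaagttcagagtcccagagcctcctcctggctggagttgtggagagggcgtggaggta

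RefSeq windows of 300 bases, 250 before and 50 after the start, were found for 29 of the 31 genes, all but Pdp1 and Idh3a. None of the 29 held TNAAGGTCA, the letters bound by estrogen-related receptors, on either strand, against 1.26% of 27025 windows. None held GCGCATGCG, an NRF1 core, against 1.81%, or TGTTTAC, a FOXO element, against 3.55%. The CCAAT box and the GC box GGGCGG were looked for after the sequences and these absent matches had been seen. In the 190 bases of the stretch above, CCAAT was found in 16 of 29 genes, 55.2% against 27.2% of all windows. GGGCGG was found in 16 of 29, 55.2% against 22.8%. The comparison windows include genes that the filter on low counts removed, and a match of letters says nothing of binding.

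MPC2 and MPC1 form the pyruvate carrier together. Mpc2 had 244.2, 188.5 and 238.9 CPM in AOS-FMT hearts, 271.1, 267.3 and 251.9 CPM in Con-FMT hearts, 359.2, 298.3 and 280.3 CPM in busulfan hearts and 360.9, 228.1 and 280.5 CPM in control hearts. Every AOS-FMT library lay below every Con-FMT and every busulfan library, while control replicate 2 fell among the AOS-FMT libraries. For Mpc2 the log2 fold change was -0.48 ± 0.17 (SE) in AOS-FMT against busulfan (edgeR adjusted p = 0.296), -0.24 ± 0.17 in AOS-FMT against Con-FMT, -0.37 ± 0.17 in AOS-FMT against control (adjusted p = 0.542) and -0.25 ± 0.17 in Con-FMT against busulfan (adjusted p = 0.999). The value against control was -0.19 without control replicate 1, and that of Con-FMT against busulfan was -0.135 without busulfan replicate 1. With the cardiomyocyte marker mean as a covariate AOS-FMT against busulfan gave -0.10 for Mpc2, and with the atrial score -0.18. The partner subunit Mpc1 had 733.5, 549.5 and 721.2 CPM in AOS-FMT hearts, 725.7, 771.6 and 687.9 CPM in Con-FMT hearts, 838.9, 644.9 and 672.4 CPM in busulfan hearts and 988.3, 617.9 and 862 CPM in control hearts. All 4 groups overlapped for Mpc1, and its log2 fold change in AOS-FMT against busulfan was -0.11 ± 0.18 (SE).

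All 5 subunit genes of the pyruvate dehydrogenase complex were lower in AOS-FMT hearts than in busulfan hearts, with log2 fold changes between -0.35 and -0.08 and a median of -0.16. Pdha1, the E1 alpha subunit that the kinases phosphorylate, had 1003, 754.1 and 894.2 CPM in AOS-FMT hearts, 996.3, 957.1 and 972.2 CPM in Con-FMT hearts, 1047, 837.1 and 1038 CPM in busulfan hearts and 1109, 954.7 and 893.8 CPM in control hearts. The groups overlapped, and its log2 fold change was -0.14 ± 0.14 (SE) in AOS-FMT against busulfan. Dlat, the E2 core, showed the lowest fold change of the complex, -0.35 ± 0.16 (SE), with 415.5, 265.6 and 406.6 CPM in AOS-FMT hearts against 487.7, 434.4 and 459.2 CPM in busulfan hearts, and these groups did not overlap. Without AOS-FMT replicate 2 the lowest fold change of any gene of the complex was -0.16. Pdhx, which ties E3 to the core, had 154.8, 112.9 and 155.3 CPM in AOS-FMT hearts, 175, 162 and 171.8 CPM in Con-FMT hearts, 169.5, 100.8 and 176.1 CPM in busulfan hearts and 208.4, 165.8 and 147.8 CPM in control hearts. Busulfan replicate 2 was the lowest library for Pdhx. Its log2 fold change in Con-FMT against busulfan was 0.19 ± 0.20 (SE, adjusted p = 0.999), and -0.03 without that library. The median of the complex in AOS-FMT against busulfan was -0.02 with AOS-FMT replicate 2 left out, and 4 of 5 genes were below 0.

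Pdk3 and Pdk4 were the members with a fold change above 0 in AOS-FMT hearts against each other group. Pdk4, the isoform known to be induced by fasting, fatty acids and glucocorticoids, had 307.2, 370.6 and 337.1 CPM in AOS-FMT hearts, 251.4, 198.2 and 286.4 CPM in Con-FMT hearts, 280.5, 151.5 and 233.8 CPM in busulfan hearts and 225, 283.6 and 180.5 CPM in control hearts. All 3 AOS-FMT libraries lay above the other 9, and those 9 overlapped one another. The log2 fold change of Pdk4 was 0.61 ± 0.22 (SE) in AOS-FMT against busulfan (edgeR adjusted p = 0.302), 0.46 ± 0.22 in AOS-FMT against Con-FMT (adjusted p = 0.797) and 0.56 ± 0.22 in AOS-FMT against control (adjusted p = 0.501). These comparisons share the AOS-FMT libraries and so are not independent. Without AOS-FMT replicate 2, where Pdk4 was highest, the first of them was 0.55. Without busulfan replicate 2 it was 0.39, more than 1.5 times smaller.

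Pdk2, the most abundant kinase gene by TPM, ran the other way. It had 552.7, 410.8 and 559.5 CPM in AOS-FMT hearts, 661.1, 639.9 and 627.5 CPM in Con-FMT hearts, 654.1, 571.7 and 696.4 CPM in busulfan hearts and 568.5, 561.9 and 508.7 CPM in control hearts. AOS-FMT libraries lay below all Con-FMT and all busulfan libraries and overlapped the control libraries. Its log2 fold change was -0.34 ± 0.14 (SE) both in AOS-FMT against busulfan (adjusted p = 0.319) and in AOS-FMT against Con-FMT (adjusted p = 0.79). Leaving out AOS-FMT replicate 2 gave -0.20 and -0.21 in these comparisons, and the cardiomyocyte marker mean as a covariate gave -0.13 and -0.22. Pdk1 had 139, 104.2 and 166.2 CPM in AOS-FMT hearts, 173, 169.2 and 182.5 CPM in Con-FMT hearts, 168.5, 138.2 and 198.5 CPM in busulfan hearts and 175.5, 170.3 and 138.3 CPM in control hearts. The AOS-FMT libraries of Pdk1 lay below all Con-FMT libraries but overlapped the busulfan and control libraries.

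Pdk3 was scarce and uneven. It had 2.77, 12.7 and 8.85 CPM in AOS-FMT hearts, 3.53, 4.01 and 5 CPM in Con-FMT hearts, 2.26, 1.53 and 3.89 CPM in busulfan hearts and 2.65, 10.7 and 8.65 CPM in control hearts. AOS-FMT replicates 2 and 3 and control replicates 2 and 3 stood above the other 8 libraries. The same 4 libraries had the highest atrial marker means, 10.06 and 9.09 log2 CPM in AOS-FMT hearts and 9.93 and 9.43 log2 CPM in control hearts, against at most 7.27 log2 CPM in the others. For Pdk3 the log2 fold change was 1.67 ± 0.60 (SE) in AOS-FMT against busulfan (adjusted p = 0.304) and -1.52 ± 0.60 in busulfan against control (adjusted p = 0.39). In AOS-FMT against busulfan it was 0.47 with the atrial score as a covariate, and -0.28 with the cardiomyocyte marker mean. In busulfan against control these covariates gave -0.34 and -0.51. In AOS-FMT against control Pdk3 had 0.15, and -0.34 without AOS-FMT replicate 2.

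Within a library, the share of a kinase in the summed TPM of Pdk1 to Pdk4 does not depend on scaling between libraries. Pdk4 made up 23.9%, 33.1% and 24.8% of that sum in AOS-FMT hearts, 17.6%, 14.7% and 20.2% in Con-FMT hearts, 19.5%, 13.1% and 15.8% in busulfan hearts and 17.9%, 21.6% and 16.4% in control hearts. The mean share was 27.3% ± 5.1 in AOS-FMT hearts, 17.5% ± 2.73 in Con-FMT hearts, 16.1% ± 3.21 in busulfan hearts and 18.6% ± 2.69 in control hearts (SD, n = 3 each). AOS-FMT libraries lay above all others. The two-sided exact permutation p was 0.1 for AOS-FMT against each of the other groups, which is the smallest p that 3 libraries against 3 allow, and 0.267 after Benjamini-Hochberg adjustment over the 24 tests of within-library quantities. Pdk2 made up 58.8% to 68.8% in AOS-FMT hearts, 70.8% to 76.5% in Con-FMT hearts, 72.7% to 78.9% in busulfan hearts and 68.5% to 74.1% in control hearts.

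**Figure D3:**
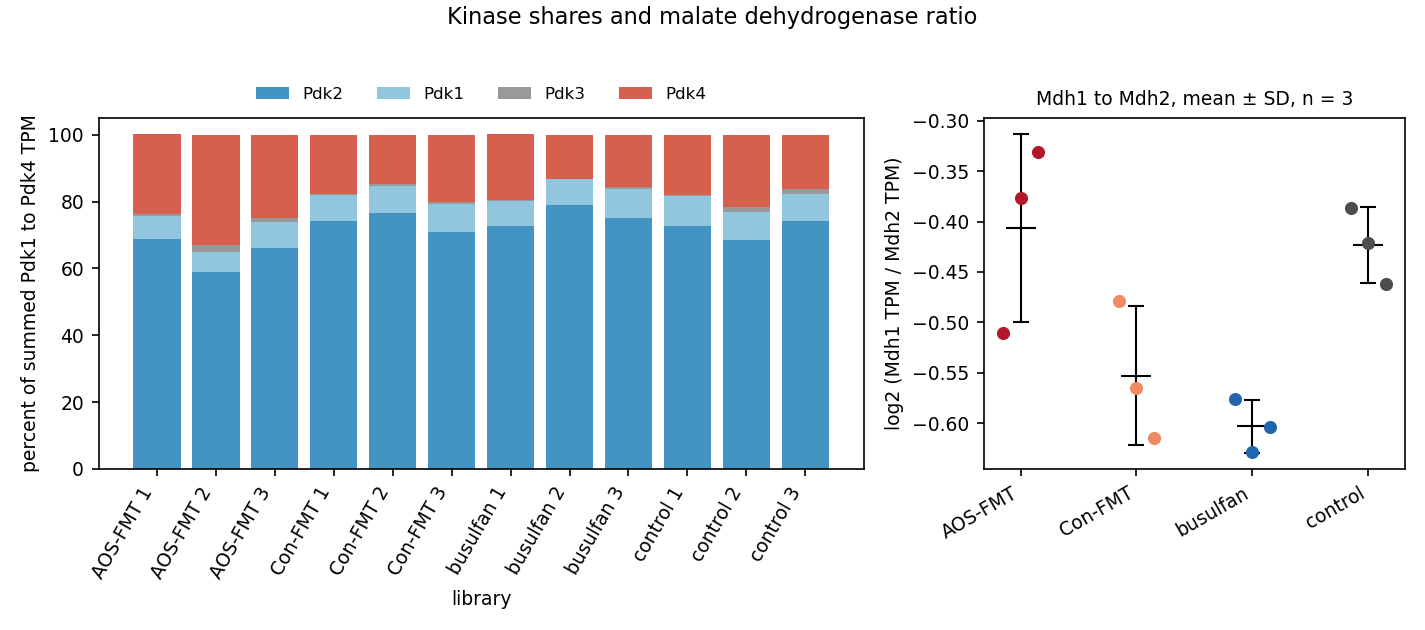
Left, stacked bars give each kinase gene's percent of the summed Pdk1 to Pdk4 TPM in each library, and the Pdk4 share runs at 23.9% to 33.1% in AOS-FMT hearts. Right, points are the log2 ratio of Mdh1 TPM to Mdh2 TPM per library with mean ± SD (n = 3 per group), and the busulfan libraries lie below the control libraries.

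The phosphatase genes had small fold changes. Pdp1, a catalytic subunit that reactivates the complex, had 30.6, 34.1 and 40.9 CPM in AOS-FMT hearts, 36.1, 38.1 and 40.9 CPM in Con-FMT hearts, 37, 31.1 and 42 CPM in busulfan hearts and 43.1, 42 and 40 CPM in control hearts. The groups overlapped in AOS-FMT against busulfan, where the 3 phosphatase genes had log2 fold changes between -0.17 and -0.06. Their median was 0.03 without AOS-FMT replicate 2, with 1 of 3 below 0. Pcx had 35.1, 29.6 and 39.3 CPM in AOS-FMT hearts, 35.5, 34.9 and 34.5 CPM in Con-FMT hearts, 40, 34.8 and 44.3 CPM in busulfan hearts and 42.3, 37.6 and 34.9 CPM in control hearts. Pcx had a log2 fold change of -0.20 ± 0.12 (SE) in AOS-FMT against busulfan and -0.18 ± 0.12 in Con-FMT against busulfan (adjusted p = 0.999), the second being -0.10 without busulfan replicate 3.

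All 11 citric acid cycle genes were lower in AOS-FMT hearts than in busulfan hearts, with a median log2 fold change of -0.22, and without AOS-FMT replicate 2 there were 10 of 11 with a median of -0.09. Idh2, which makes mitochondrial NADPH, gave the smallest p. It had 1316, 1015 and 1243 CPM in AOS-FMT hearts, 1641, 1699 and 1542 CPM in Con-FMT hearts, 1927, 1783 and 1952 CPM in busulfan hearts and 1878, 1281 and 1507 CPM in control hearts. The AOS-FMT, Con-FMT and busulfan libraries formed 3 separate ranges in that order, and the control libraries lay between 1281 and 1878 CPM, overlapping the AOS-FMT and the busulfan ranges. The mean was 1191 ± 157 CPM in AOS-FMT hearts and 1888 ± 91.1 CPM in busulfan hearts (SD, n = 3 each). The log2 fold change of Idh2 was -0.66 ± 0.16 (SE) in AOS-FMT against busulfan (edgeR adjusted p = 0.232, and 0.00216 to 1 over the alternatives), -0.45 ± 0.15 in AOS-FMT against Con-FMT (adjusted p = 0.752) and -0.38 ± 0.15 in AOS-FMT against control (adjusted p = 0.503). Without AOS-FMT replicate 2 the first of these was -0.55, and with the cardiomyocyte marker mean as a covariate it was -0.33. With that covariate or the atrial score the value against Con-FMT was -0.26, and without control replicate 1 the value against control was -0.23. In AOS-FMT against Con-FMT the atrial score cannot be told apart from group.

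**Figure D4:**
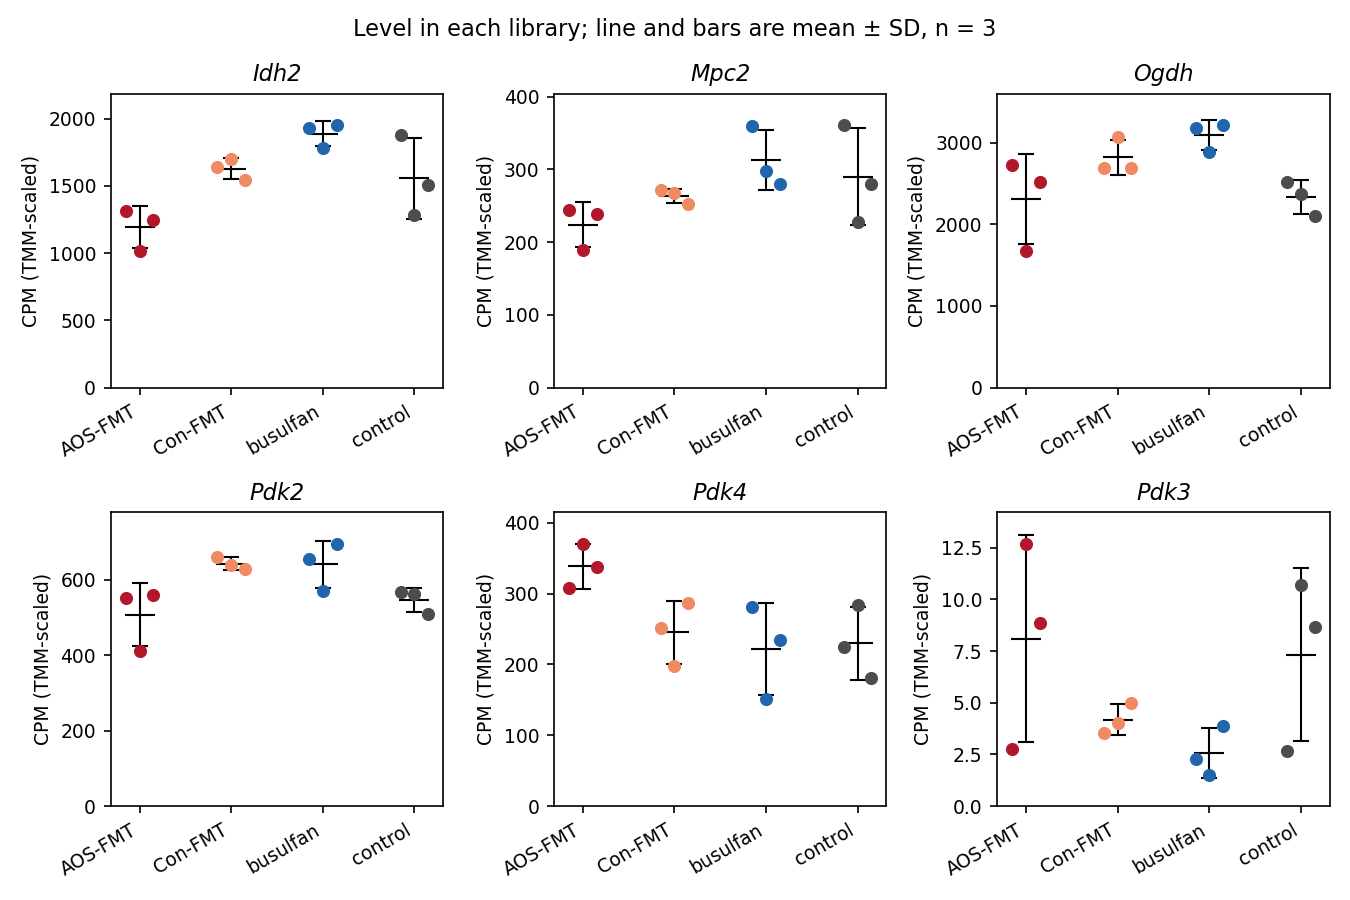
Points are the CPM of each library for the carrier subunit Mpc2, Idh2, Ogdh and the kinases Pdk2, Pdk4 and Pdk3, with mean ± SD (n = 3 per group) and axes that start at 0. The AOS-FMT libraries of Pdk4 lie at 307.2 to 370.6 CPM, above all others, and those of Idh2 at 1015 to 1316 CPM, below all Con-FMT and busulfan libraries.

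Ogdh, the E1 subunit of the 2-oxoglutarate dehydrogenase complex, was the 1 cycle gene whose busulfan libraries did not overlap the control libraries. It had 2723, 1680 and 2514 CPM in AOS-FMT hearts, 2695, 3073 and 2695 CPM in Con-FMT hearts, 3178, 2882 and 3218 CPM in busulfan hearts and 2524, 2373 and 2107 CPM in control hearts. All busulfan and all Con-FMT libraries lay above all control libraries, and the AOS-FMT libraries overlapped the control libraries. Fold changes of Ogdh on the log2 scale were 0.41 ± 0.17 (SE) in busulfan against control (edgeR adjusted p = 0.407), 0.27 ± 0.17 in Con-FMT against control (adjusted p = 0.709) and -0.42 ± 0.17 in AOS-FMT against busulfan (adjusted p = 0.318). In busulfan against control it was 0.24 with the atrial score and 0.22 with the cardiomyocyte marker mean as a covariate. The entry enzyme of the cycle, citrate synthase Cs, had 1683, 1112 and 1508 CPM in AOS-FMT hearts, 1728, 1709 and 1567 CPM in Con-FMT hearts, 1805, 1371 and 1796 CPM in busulfan hearts and 1728, 1523 and 1482 CPM in control hearts. The groups overlapped for Cs, and its log2 fold change in AOS-FMT against busulfan was -0.21 ± 0.17 (SE).

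Succinyl-CoA synthetase pairs the shared alpha subunit Suclg1 with a GTP-forming beta subunit, Suclg2, or an ATP-forming one, Sucla2. Suclg2 had 159.5, 96.1 and 152.7 CPM in AOS-FMT hearts, 172.1, 160.7 and 166.9 CPM in Con-FMT hearts, 182.8, 146.5 and 172.4 CPM in busulfan hearts and 147, 135.8 and 136.6 CPM in control hearts. Sucla2 had 524.1, 340.3 and 494.8 CPM in AOS-FMT hearts, 545.3, 558.5 and 529.2 CPM in Con-FMT hearts, 597.1, 405.7 and 535.2 CPM in busulfan hearts and 677.5, 472.1 and 523.6 CPM in control hearts. The log2 ratio of Suclg2 TPM to Sucla2 TPM was -2.18 ± 0.07 in AOS-FMT hearts, -2.13 ± 0.06 in Con-FMT hearts, -2.02 ± 0.12 in busulfan hearts and -2.42 ± 0.23 in control hearts (SD, n = 3 each). Every busulfan and every Con-FMT library lay above every control library in this ratio. The exact permutation p was 0.1 for AOS-FMT against busulfan (difference -0.16), for Con-FMT against control (0.28) and for busulfan against control (0.40), the smallest possible, and 0.267 after adjustment.

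The malate-aspartate shuttle carries reducing equivalents into the matrix with a cytosolic and a mitochondrial form of each of its enzymes. Mdh2 had 1486, 1214 and 1386 CPM in AOS-FMT hearts, 1579, 1687 and 1607 CPM in Con-FMT hearts, 1779, 1555 and 1829 CPM in busulfan hearts and 1896, 1435 and 1491 CPM in control hearts. The AOS-FMT libraries lay below all Con-FMT and busulfan libraries, and the log2 fold change of Mdh2 was -0.34 ± 0.14 (SE) in AOS-FMT against busulfan (adjusted p = 0.33). The aspartate aminotransferase Got1 had 623.6, 424.7 and 518.6 CPM in AOS-FMT hearts, 578.4, 666.9 and 548.7 CPM in Con-FMT hearts, 645.5, 556 and 629.5 CPM in busulfan hearts and 656.1, 576 and 528.7 CPM in control hearts, and the groups overlapped.

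Both shuttle enzymes were also described by the ratio of the cytosolic to the mitochondrial form. The log2 ratio of Mdh1 TPM to Mdh2 TPM was -0.51, -0.38 and -0.33 in AOS-FMT hearts, -0.48, -0.57 and -0.62 in Con-FMT hearts, -0.58, -0.63 and -0.60 in busulfan hearts and -0.39, -0.42 and -0.46 in control hearts. All busulfan libraries lay below all control and all AOS-FMT libraries. The difference was 0.20 for AOS-FMT minus busulfan, -0.13 for Con-FMT minus control and -0.18 for busulfan minus control, each with an exact permutation p of 0.1 and 0.267 after adjustment. For Got1 to Got2 the exact permutation p ran between 0.3 and 1 over the 6 comparisons, and the largest difference, AOS-FMT minus Con-FMT, was 0.09 on the log2 scale. Me3, the mitochondrial NADP malic enzyme, had 127, 97.8 and 120.5 CPM in AOS-FMT hearts, all below the 137, 129 and 134.3 CPM of busulfan hearts, with a log2 fold change of -0.21 ± 0.15 (SE).

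The other comparisons of AOS-FMT hearts rest on the same 3 AOS-FMT libraries. Against Con-FMT hearts 29 of 31 genes, or 93.5%, were below 0, against 49.4% of all genes, with a median log2 fold change of -0.20 against 0.00 over all genes. At an unadjusted p under 0.05 there were 2 lower genes, Idh2 and Pdk2 (6.45%, against 2.35% of all genes), and 0 higher ones (against 3.88%). The libraries did not overlap for 11 lower genes, 35.5% against 7.29% of all genes, and for Pdk4 as the 1 higher gene, 3.23% against 6.52%. Without AOS-FMT replicate 2 the median was -0.06, with 24 genes below 0. With the atrial score, or the cardiomyocyte marker mean, as a covariate the median was -0.02 or -0.01, with 17 genes below 0 each time. The atrial scores did not overlap, at 6.58 to 10.38 log2 CPM in AOS-FMT libraries and 1.00 to 6.32 log2 CPM in Con-FMT libraries. In this comparison the atrial score therefore cannot be told apart from group. Of the markers, 11 of 13 cardiomyocyte genes were below 0 (median -0.24) and 8 of 8 atrial genes above 0 (median 2.94). Against control hearts 29 of 31 genes, or 93.5%, were below 0, against 51% of all genes, with a median of -0.20. This count holds for counts scaled by TMM. By mean TPM, Ogdh (746.3 against 661.7 TPM) and Cs (713.1 against 686.6 TPM) lay above control. Idh2 (1097 against 1233 TPM) and Mpc1 (1327 against 1406 TPM) lay below. The summed TPM of the 31 genes averaged 14160 in AOS-FMT hearts and 14380 in control hearts. With the atrial score as a covariate 29 genes were below 0, and with the cardiomyocyte marker mean 23. Of the markers, 12 of 13 cardiomyocyte genes were below 0 (median -0.23) and 12 of 13 liver genes above 0 (median 5.16). The mean of the liver markers was 2.30, 2.78 and 5.10 log2 CPM in AOS-FMT hearts and -0.045, 0.61 and 0.31 log2 CPM in control hearts. Their summed level overlapped, at 137.3 to 827.8 CPM in AOS-FMT hearts and 61.5 to 161.1 CPM in control hearts. At an unadjusted p under 0.05 there were 2 lower genes, Idh2 and Mpc2 (6.45%, against 3.44% of all genes), and 1 higher gene, Pdk4 (3.23%, against 5.43%). Only for Pdk4 did the libraries not overlap, 3.23% of the genes higher against 6.63% of all genes, and 0 genes were lower without overlap, against 3.8%. Without AOS-FMT replicate 2 the median against control was -0.09, and without control replicate 1, which was the highest library by CPM for 18 of the genes, it was -0.10.

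In busulfan hearts the genes fell on both sides of their control level. In busulfan against control 15 of 31 genes were below 0, or 48.4% against 52.3% of all genes, and the median log2 fold change was 0.01 against -0.01 over all genes. This count turned on single libraries, with 6 genes below 0 without control replicate 1, 8 without busulfan replicate 2 and 21 without control replicate 3. It was 24 with the atrial score and 26 with the cardiomyocyte marker mean as a covariate. At an unadjusted p under 0.05 there was 1 higher gene, Ogdh (3.23%, against 5.54% of all genes), and 1 lower gene, Pdk3 (3.23%, against 5.78%). Libraries did not overlap by CPM for 2 higher genes, Ogdh and Pdk2, 6.45% against 7.74% of all genes, and for 0 lower genes, against 6.38%. By TPM the libraries of Ogdh stayed apart and those of Pdk2 overlapped. The log2 fold change of Pdk2 was 0.23 ± 0.14 (SE) and that of Idh2 0.28 ± 0.15, the second with overlapping libraries (adjusted p = 0.53) and at 0.42 without control replicate 1 and 0.16 without control replicate 2. That of Pdp1 was -0.18 ± 0.13 (adjusted p = 0.632), or -0.08 without busulfan replicate 2 and -0.29 without busulfan replicate 3, and that of Pdk4 was -0.05 ± 0.22, whose sign turned in 4 of 22 alternatives.

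**Figure D5:**
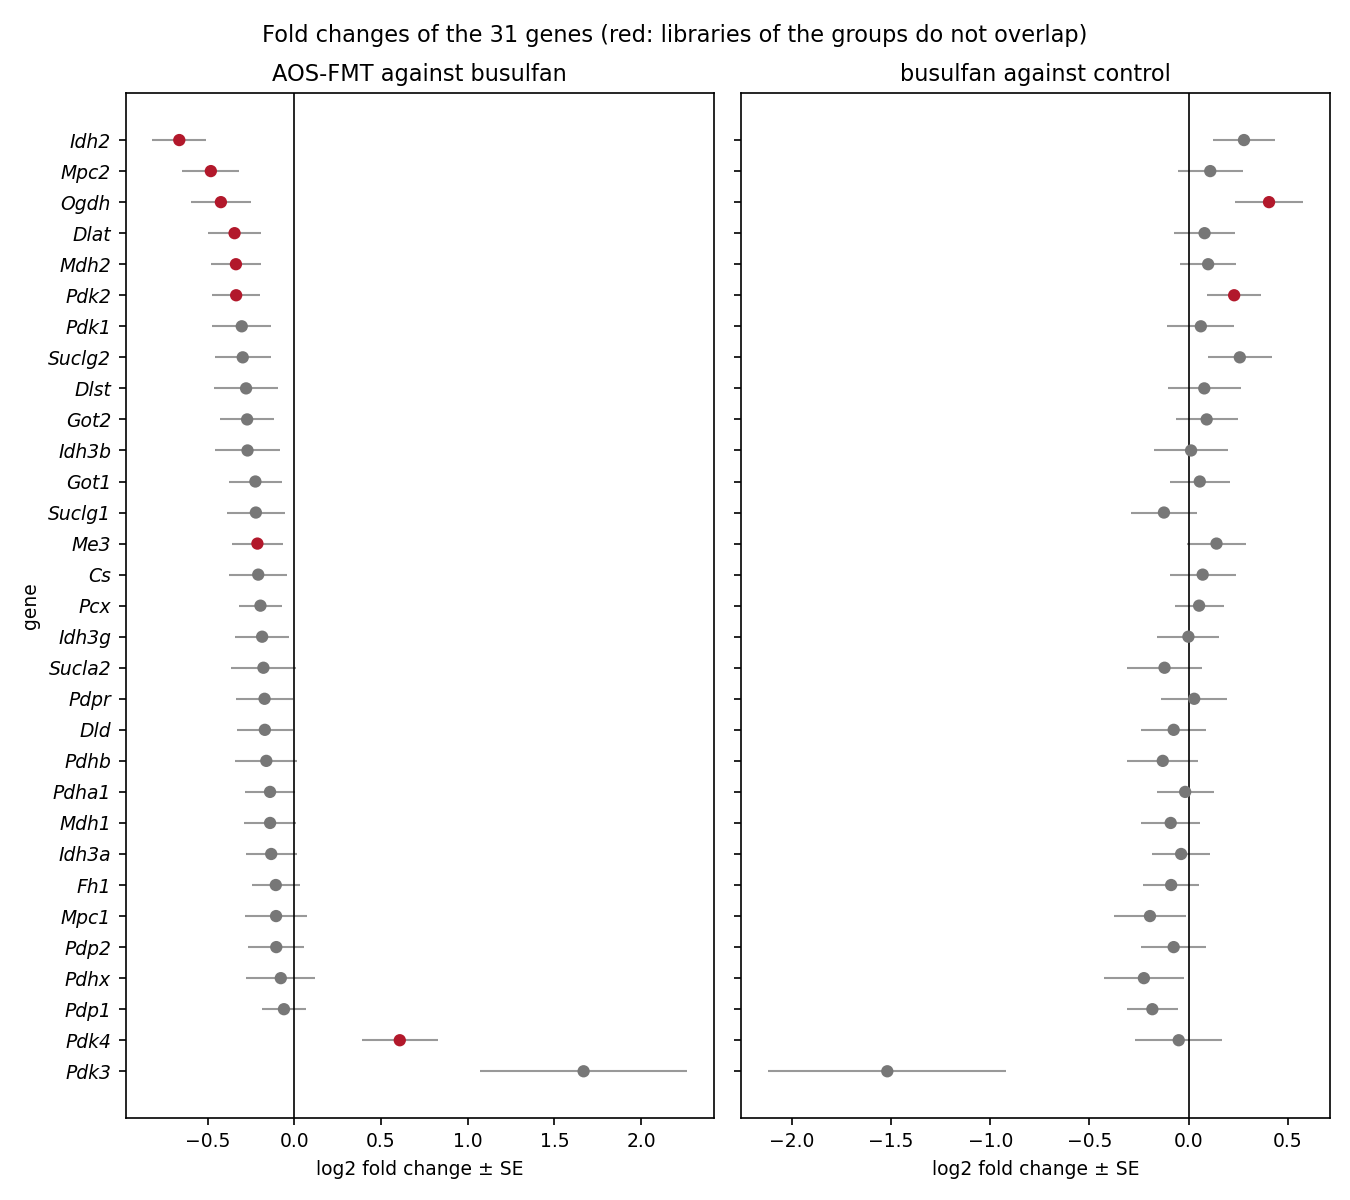
Points are log2 fold changes with SE for the 31 genes in AOS-FMT against busulfan (left) and busulfan against control (right), and red points mark genes whose libraries do not overlap between the groups. On the left 29 of 31 points lie below 0, and on the right 15 of 31. The panels share the busulfan libraries.

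Con-FMT hearts showed no member past an unadjusted p of 0.05 in either of their comparisons. Of all genes, 1.76% were higher and 0.89% lower at that threshold against busulfan hearts, and 4.46% higher and 3.74% lower against control hearts. Against busulfan hearts 17 of 31 genes were below 0, or 54.8% against 50.1% of all genes, with a median of -0.01. The count was 30 without busulfan replicate 2, 11 without busulfan replicate 1 and 4 with the cardiomyocyte marker mean as a covariate. Those marker means did not overlap, at 12.79 to 12.87 log2 CPM in Con-FMT hearts and 12.97 to 13.06 log2 CPM in busulfan hearts. That covariate therefore cannot be told apart from group in this comparison. All 13 cardiomyocyte markers were below 0, with a median of -0.19. The 3 genes whose libraries did not overlap by CPM, Mpc2, Idh2 and Me3, were all lower, 9.68% against 6.58% of all genes (0 were higher, against 5.41%), and the log2 fold change of Idh2 was -0.21 ± 0.15 (SE). By TPM the libraries of Mpc2 stayed apart and those of Idh2 and Me3 overlapped. Against control hearts 17 of 31 genes were below 0, 54.8% against 52.6%, with a median of -0.02. That count was 5 without control replicate 1 and 24 without control replicate 3. Here 3 genes, Pdk2, Ogdh and Suclg2, were higher with no overlap, 9.68% against 7.16% of all genes (0 were lower, against 4.71%). The log2 fold changes of Pdk2 and Suclg2 were 0.23 ± 0.14 (SE, adjusted p = 0.68) and 0.25 ± 0.16 (adjusted p = 0.714).

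Other genes of the pathway were described in the same way. Of 24 further genes, among them succinate dehydrogenase, lactate dehydrogenase and mitochondrial carriers, 0 were called by edgeR in any comparison. In AOS-FMT against busulfan 18 of 24 were below 0, with a median of -0.10, and without AOS-FMT replicate 2 there were 14 with a median of -0.02. The heart isoform of lactate dehydrogenase, Ldhb, gave the smallest p, with 2055, 1370 and 1761 CPM in AOS-FMT hearts against 2402, 2520 and 2285 CPM in busulfan hearts. Its groups did not overlap, and its log2 fold change was -0.47 ± 0.20 (SE, adjusted p = 0.329).

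Fold changes of other routes of fuel oxidation were below 0 too in AOS-FMT against busulfan, with 20 of 20 fatty acid oxidation genes below 0 at a median of -0.28 and 69 of 69 subunit genes of oxidative phosphorylation below 0 at a median of -0.35. These medians were -0.11 and -0.26 without AOS-FMT replicate 2, with 19 of 20 and 67 of 69 below 0. None of these genes was called by edgeR. At an unadjusted p under 0.05 there were 5 lower genes of 20 and 24 of 69, against 5.85% of all genes. These counts were 0 of 20 and 8 of 69 without AOS-FMT replicate 2, against 358 of 13487 genes. In Con-FMT against busulfan 66 of 69 oxidative phosphorylation genes were below 0 with a median of -0.22, beside -0.01 for the 31 genes. Whether these lists differ from the 31 genes was not tested.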

How the data were processed

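Estimated counts per gene were deposited by the authors, per the file headers, with TPM and FPKM columns for all 12 libraries. The deposited FPKM columns entered no test. Bowtie 0.12.2 and mm10 are named per the submitters' processing notes, and for the counter and annotation: not given in the sources used here. Estimated counts were rounded, filtered with filterByExpr, scaled by TMM and tested in R 4.3.3 with edgeR 4.0.16 (glmQLFit, robust), over all libraries with group as the only term. Adjusted p-values are Benjamini-Hochberg over all genes, and the procedure was tested on simulated data. Ratios within a library used TPM and two-sided exact permutation tests. Alternatives were limma 3.58.1, DESeq2 1.42.0, other scaling and filters, marker covariates, a replicate block and leaving out each library. Per-library values are given for 14 genes fixed by name and for the 2 genes of smallest p in each direction of a comparison, and Dlat, Me3 and Ldhb are given beyond the first rule. A result on 1 further gene is not reported here. The 31 genes, lists and markers were chosen with earlier results of these data known. Positions are from the GRCm38.p6 gene table.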

Additional observations from a re-analysis of the deposited data

How the results depend on the processing

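The count of the 31 genes called stayed at 0 in all alternatives for 5 comparisons. In AOS-FMT against busulfan it was 1 with DESeq2, which called Idh2 at -0.67 (adjusted p = 0.00216), and 0 in all other alternatives. Median log2 fold changes moved with markers as covariates, to 0.115 with the cardiomyocyte markers in AOS-FMT against busulfan, and to -0.016 (atrial) and -0.005 (cardiomyocyte) in AOS-FMT against Con-FMT. The atrial score did not overlap between AOS-FMT and Con-FMT libraries. The cardiomyocyte marker mean did not overlap between busulfan libraries and those of either FMT group. In these comparisons the covariate cannot be told apart from group. Leaving out 1 library each, the medians ran between -0.299 and -0.085 in AOS-FMT against busulfan, -0.304 and -0.063 in AOS-FMT against Con-FMT, -0.273 and -0.092 in AOS-FMT against control, -0.097 and 0.041 in Con-FMT against busulfan, -0.092 and 0.081 in Con-FMT against control, and -0.064 and 0.109 in busulfan against control. With the replicate number as a block 0 of the 31 genes were called in each comparison, and 14 genes in all in AOS-FMT against busulfan, against 6 without it. Correlations of same-numbered libraries ran between -0.161 and 0.454, with 10 of 18 over 0.1, so the numbers were not taken as a pairing. In 8 of those 18 pairs a library correlated best with its own number. Scaling by library size alone shifted the median of all genes to 0.136 in AOS-FMT against busulfan, where 24 of the 31 genes were then below 0. Of 726 alternative values for 33 fold changes of single genes, 21 turned their sign, and the cause was not tested. With the atrial covariate these were Pdk4 in busulfan against control (0.038), Pdk3 in AOS-FMT against Con-FMT (-0.376), Pdk3 in Con-FMT against control (0.51) and Idh2 in Con-FMT against control (-0.12). With the cardiomyocyte covariate they were Pdk4 in busulfan against control (0.026) and Pdk3 in AOS-FMT against busulfan (-0.277), AOS-FMT against Con-FMT (-0.261), AOS-FMT against control (-0.79) and Con-FMT against busulfan (-0.016). Without busulfan replicate 2 they were Pdk4 (-0.069), Pdk2 (-0.072) and Pdhx (-0.028) in Con-FMT against busulfan and Pdk4 in busulfan against control (0.164). Leaving out other libraries, they were Pdk4 in busulfan against control without control replicate 2 (0.13), Pdk2 in Con-FMT against busulfan without Con-FMT replicate 1 (-0.017), Idh2 in Con-FMT against control without control replicate 2 (-0.057), Pdk4 in Con-FMT against control without Con-FMT replicate 3 (-0.031) or control replicate 3 (-0.064), Pdk3 in AOS-FMT against control without AOS-FMT replicate 2 (-0.342) or control replicate 1 (-0.251), and Pdk2 in AOS-FMT against control without AOS-FMT replicate 2 (0.017). Over all 12 single omissions these values ran between -0.254 and 0.164 for Pdk4 in busulfan against control, -0.069 and 0.348 for Pdk4, -0.072 and 0.068 for Pdk2 and -0.028 and 0.327 for Pdhx in Con-FMT against busulfan, -0.064 and 0.274 for Pdk4 and -0.057 and 0.213 for Idh2 in Con-FMT against control, and -0.342 and 0.549 for Pdk3 and -0.183 and 0.017 for Pdk2 in AOS-FMT against control. Pdk3 had as few as 18 counts in a library, and its CPM had a coefficient of variation of 61.8% in AOS-FMT hearts and 57% in control hearts. Precision rests on 3 libraries a group.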

Other observations

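Regulators of mitochondrial and fuel metabolism, most of them transcription factors or coactivators, showed no call by edgeR. Of 15 regulators, 12 had a log2 fold change below 0 in AOS-FMT against busulfan (median -0.10), and without AOS-FMT replicate 2 there were 9 (median -0.02). Of 15 PPAR target genes 10 were below 0 in that comparison, with a median of -0.20, and 0 were called. Without that library there were 11, with a median of -0.09. Esrra, an estrogen-related receptor that drives mitochondrial genes, gave the smallest p among the regulators, with 183.7, 149.1 and 173.3 CPM in AOS-FMT hearts against 229.3, 202.9 and 190.1 CPM in busulfan hearts (-0.30 ± 0.14, SE, adjusted p = 0.365). Hif1a, the hypoxia-inducible factor whose targets include Pdk1, had a log2 fold change of 0.39 ± 0.10 in Con-FMT against control (edgeR adjusted p = 0.3). Pdk1 itself had 0.12 ± 0.17 in that comparison (edgeR adjusted p = 0.919), with overlapping libraries. A link between Hif1a and Pdk1 was not tested.

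Among 10 glucocorticoid-responsive genes edgeR called 1, Cdkn1a, in AOS-FMT against control (0.0815% of all genes were called) and in busulfan against control (0.0593%). Cdkn1a is a cell cycle inhibitor also known as a p53 target. It rose to 75.4, 88.7 and 86.8 CPM in AOS-FMT hearts (mean 83.6 CPM, adjusted p = 0.0103) and to 65.0, 80.2 and 72.7 CPM in busulfan hearts, against 41.4, 42.7 and 31.3 CPM in control hearts (0.92 ± 0.13 on the log2 scale, adjusted p = 0.0247). Con-FMT hearts had 63.3, 65.7 and 69.2 CPM of Cdkn1a, also above all control libraries. In Con-FMT against control edgeR called 0 of all genes. In AOS-FMT against busulfan 6 of the 10 glucocorticoid-responsive genes were above 0 and 4 below, with a median of 0.12 and a lowest value of -0.42. The smallest edgeR p values of that list there belonged to Per1 (1.504 ± 0.261, adjusted p = 0.0992), Tsc22d3 (0.75 ± 0.14, adjusted p = 0.117) and Sgk1 (0.69 ± 0.15, adjusted p = 0.218), none of which was called. Pdk4 had a fold change above 0 in the same comparison. Whether these genes move together was not tested.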
